A study of Mus musculus with 12 samples.

Results

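The genes described here are 42 ribosome biogenesis factors other than Rrs1, a nucleolar protein that helps to build the large (60S) ribosomal subunit. Their names were taken as a list, their probe sets were looked up in the probe table of the array, and each gene was read from its brightest probe set, the one with the highest 12-array mean, leaving aside probe sets shared between genes. Of the 42, 41 had such a probe set, out of 18193 genes with one on the array. Mrto4, a 60S assembly factor, had no probe set of its own and is named here only.

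Ribosomes are built in the nucleolus, where RNA polymerase I transcribes the ribosomal RNA precursor from repeated genes. Small nucleolar ribonucleoproteins (snoRNPs) modify the precursor, and separate sets of assembly factors process it into the small (40S) and large (60S) subunits. Rrs1 and its partner Rpf2 act on the large subunit, and in yeast they bring the 5S ribonucleoprotein particle into it. Neurons keep this pathway active after they stop dividing, since they go on making protein.

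The study measured RNA from the striatum, the brain region most affected in Huntington's disease, on Affymetrix Mouse Genome 430 2.0 arrays, with 1 array per mouse. Q92 mice, labelled HdhQ92/Q92, carry 92 CAG repeats in a segment of the human disease gene placed in the mouse Hdh (Htt) gene, so the altered protein is made wherever that gene is active. The Q92 mice at 18 months were 567 to 596 days old, and their wild-type controls were 596 to 604 days old. The Q92 and the wild-type mice at 3 months were all 100 to 103 days old. Each of the 4 groups held 3 separate C57BL/6 mice, with 2 females and 1 male in both Q92 groups and in wild type at 18 months, and 1 female and 2 males in wild type at 3 months. The comparison asked here is whether other nucleolar genes moved with Rrs1.

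Values are log2 signals, on which a difference of 1 is a doubling, and differences were tested with limma, with p-values adjusted by the Benjamini-Hochberg method over all 45037 probe sets. The log2 signals ran from 2.03 to 13.8, and each array's mean correlation with the other arrays was between 0.987 and 0.992. All 14 measured markers of striatal projection neurons, of 15 listed, were at or above the 67.2th percentile of signal. At 18 months, 14 of 14 of these markers were lower in Q92 (median log2 difference -0.84), and 2 passed the test. Per mouse, their mean stood at -0.61, -0.36 and -1.15 from the 12-mouse mean in Q92 mice at 18 months, against 0.24, 0.10 and 0.16 in wild-type mice of that age. Markers of other cell types also differed in level: at 18 months 9 of 10 of cortical excitatory neurons were higher in Q92 (median 0.44) and 7 of 9 of oligodendrocytes were lower (median -0.14), with 0 of either past the test. The cortical marker mean stood at 0.88, 0.87 and -0.48 in these Q92 mice, against 0.13, -0.18 and -0.11 in the wild-type mice. Also lower in Q92 at 18 months were 7 of 8 thalamic (median -0.46) and 7 of 9 microglial markers (-0.23). The same held for 7 of 8 astrocyte (-0.19) and 7 of 9 choroid plexus and ependyma markers (-0.14). Of neuroblast and proliferation markers, 6 of 11 were higher (0.01), and none of these passed. At 3 months 9 of 9 oligodendrocyte markers were higher in Q92 (0.18) and 10 of 10 cortical ones lower (-0.08), with 0 past the test. In such bulk tissue, fewer cells of a type and less RNA per cell cannot be told apart. Htt itself averaged 7.85 ± 0.14 in Q92 and 7.75 ± 0.06 in wild type at 18 months, and 8.06 ± 0.03 in Q92 and 7.76 ± 0.14 in wild type at 3 months (SD, n = 3 each); neither difference passed the test (limma, adjusted p = 0.883 and 1). Whether the Htt probes lie in the segment replaced by human sequence was not looked up here, so these values check no label.

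Rrs1, which lies on mouse chromosome 1, was higher in Q92 striatum at both ages. At 18 months its log2 signal was 8.50, 8.59 and 8.69 in the 3 Q92 mice and 8.00, 7.77 and 7.99 in the 3 wild-type mice. At 3 months it was 8.65, 8.68 and 8.59 in Q92 mice and 7.84, 7.89 and 7.89 in wild-type mice. The groups did not overlap at either age, and the lowest of the 6 Q92 mice stood above the highest of the 6 wild-type mice. The log2 difference was 0.67 ± 0.09 (SE) at 18 months (limma, adjusted p = 0.0191), 0.77 ± 0.09 at 3 months (adjusted p = 0.0160) and 0.72 ± 0.06 averaged over both ages (adjusted p = 0.000556), or 1.65-fold with a 95% interval of 1.50 to 1.82. The averaged call was lost with age in days as a block, where the difference was 0.70 log2. Q92 mice 25 and 66 and wild-type mouse 9 had ages in days of their own. That fit therefore compared only Q92 mouse 11 with wild-type mice 12 and 17 at 18 months. Fewer mice and age in days cannot be told apart there. The call at 1 age was lost at 18 months without Q92 mouse 25 or 66 or wild-type mouse 9 or 12 (adjusted p from 0.0653 to 0.0737), and at 3 months without any 1 of the 6 mice of that age (from 0.0805 to 0.167), while the difference stayed between 0.60 and 0.80 log2 in these fits.

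None of the 41 measured factors passed the test for a difference between Q92 and wild-type striatum. At 18 months 0 of 41 passed the adjusted threshold of 0.05, where 0.0770% of all genes did, and 1 of 41 (Nip7) had an unadjusted p under 0.05, against 8.03% of all genes. At 3 months 0 of 41 passed, with 0.0165% of all genes passing, and 3 of 41 (Rrp15, Wdr3 and Utp18) had an unadjusted p under 0.05, against 2.27%. Averaged over both ages 0 of 41 passed, with 0.0275% of all genes passing, and 2 of 41 (Nip7 and Utp18) had an unadjusted p under 0.05, against 4.78%. The median log2 difference of the 41 factors was 0.01 at 18 months, -0.02 at 3 months and 0.00 averaged, beside medians of -0.00, -0.02 and -0.01 over all 18193 genes. Of the 41, 24 were above 0 at 18 months, 17 at 3 months and 21 in the average, or 58.5%, 41.5% and 51.2%, where 49.6%, 42.6% and 44.1% of all genes were above 0.

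**Figure D1:**
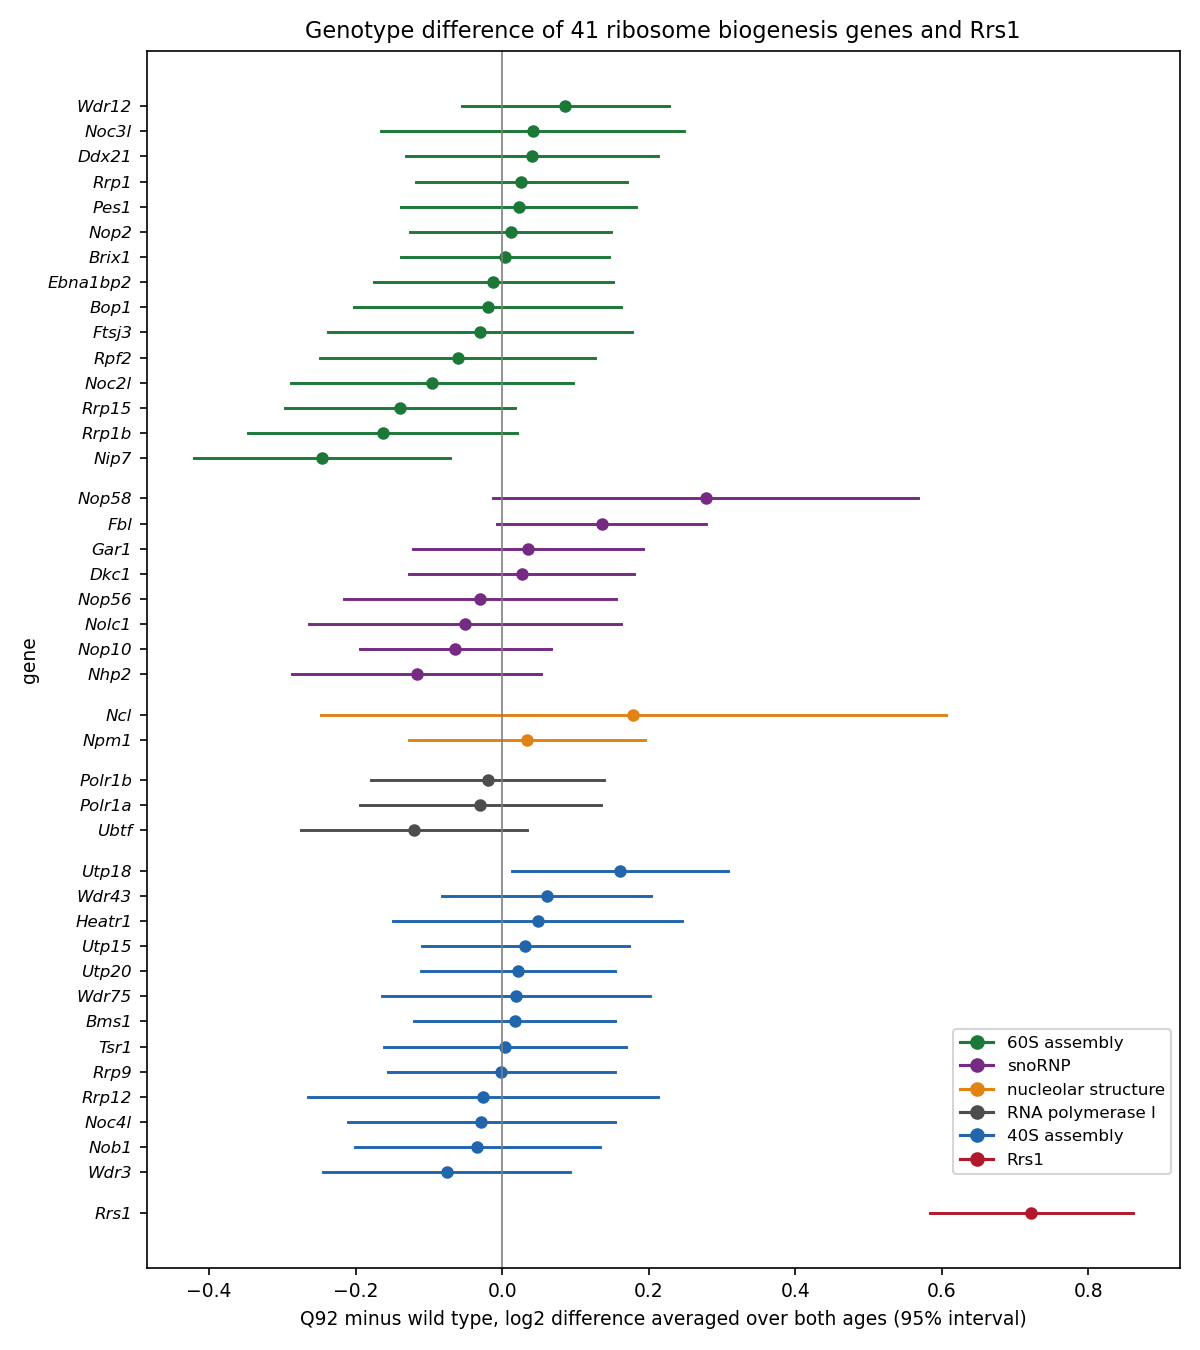
Log2 difference of Q92 minus wild-type striatum, averaged over 18 and 3 months, for the 41 measured ribosome biogenesis factors by role and for Rrs1 (points are limma estimates, lines are 95% intervals, 6 mice per genotype). Rrs1 sits at 0.72, while the factors lie between -0.25 (Nip7) and 0.28 (Nop58).

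The intervals of the averaged difference show how large an averaged rise could have been missed, for the brightest probe set of each gene only. Rrs1 had a lower bound of 0.58 log2. The upper bound of 39 of the 41 factors was between -0.07 (Nip7) and 0.31 (Utp18), a fold of at most 1.24. Nop58 had an upper bound of 0.57, and Ncl had an upper bound of 0.61, the one bound that exceeded the lower bound of Rrs1. Other probe sets and a rise at 1 age alone were not covered by these bounds. At 18 months the highest upper bound was 0.36 log2 among the 60S factors and 0.47 among the 40S factors. At 3 months these bounds were 0.42 and 0.44. The highest upper bound of the 41 factors was 0.84 at 18 months and 0.72 at 3 months. Over all 87 probe sets of the factors the averaged differences ran from -0.26 to 0.47 (Wdr12, SE 0.20). The second Rrs1 probe set was at 0.49 ± 0.10, lower than the brightest. When each factor was tested against Rrs1 within the same mice, the averaged difference of 41 of 41 was below that of Rrs1 (limma, adjusted p at most 0.0126), with a median gap of -0.72 log2. Since 98.8% of all genes passed that same test, the count is no result about these factors. The corresponding counts were 39 of 41 at 18 months (95.9% of all genes) and 41 of 41 at 3 months (97.9%). The 2 factors not shown to differ from Rrs1 at 18 months were Ncl, with a gap of -0.44 (95% interval -0.96 to 0.08), and Nop58, with a gap of -0.33 (-0.80 to 0.14).

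The mean signals of the factors ran from 5.37 (Noc3l) to 10.3 (Nop10), or from the 55.0th to the 97.9th percentile of all probe sets, with Rrs1 at the 88.6th. Taking the brightest probe set of each gene favours a high percentile, and signals of different probe sets are not a scale on which genes can be ranked against each other.

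The promoter sequence of some of these genes holds CACGTG, the palindromic E-box that MYC and its relatives bind. In the RefSeq promoter table (GRCm38.p6, 250 bases before to 50 after each listed start) 38 of the 42 factors had an entry, while Bop1, Fbl, Npm1 and Rrp12, and also Rrs1, had none. The motif was present in 7 of the 38 (18.4%), namely Nop2, Pes1, Rpf2, Tsr1, Utp18, Utp20 and Wdr43, and in 2187 of 27025 genes of the table (8.09%). In Pes1, Tsr1, Utp20 and Wdr43 it lay after the start, and in Rpf2 it lay before a listed start and after another. The sequences below show it upstream of a start in the partner of Rrs1 and in 2 further factors, Nop2 having been chosen after its values were seen. They run from chr10:40246988-40247017 (minus strand), chr11:93885767-93885886 (minus strand) and chr6:125131763-125131882 (plus strand), 5′ to 3′, and the capitals mark the motif.

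Rpf2: aagtaatcggtaCACGTGcattcgctaagg

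Utp18: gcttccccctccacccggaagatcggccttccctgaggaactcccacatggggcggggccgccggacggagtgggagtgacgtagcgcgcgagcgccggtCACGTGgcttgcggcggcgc

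Nop2: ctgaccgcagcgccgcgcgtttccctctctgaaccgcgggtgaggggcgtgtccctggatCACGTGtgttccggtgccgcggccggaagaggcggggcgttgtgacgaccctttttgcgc

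A match is a description of these letters. The averaged log2 difference of these genes was -0.06 for Rpf2, 0.16 for Utp18 and 0.01 for Nop2, and none passed the test.

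Rpf2, which forms a heterodimer with Rrs1, was not shown to differ between genotypes. Its log2 signal was 6.07, 5.77 and 6.16 in Q92 mice and 6.01, 5.85 and 5.93 in wild-type mice at 18 months, where the groups overlapped. At 3 months it was 5.81, 5.97 and 6.00 in Q92 mice and 6.02, 6.34 and 6.01 in wild-type mice, where the Q92 mice were all lower by a small margin. The difference was 0.07 ± 0.12 at 18 months (limma, adjusted p = 0.947), -0.19 ± 0.12 at 3 months (adjusted p = 1) and -0.06 ± 0.09 averaged (adjusted p = 0.999). The 18-month value had no settled sign, with -0.01 without Q92 mouse 66. Its other 3 probe sets also had averaged differences below 0, from -0.15 to -0.07. Relative to Rrs1, Rpf2 was lower by 0.78 log2 (95% interval of the gap -0.98 to -0.59).

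Among the 15 measured 60S assembly factors, 7 were above 0 and 8 below in the averaged comparison, with a median of -0.01. The PeBoW complex, which processes the large-subunit precursor, had averaged differences of -0.02 for Bop1, 0.02 for Pes1 and 0.09 for Wdr12, the largest positive value of this group by brightest probe set. Wdr12 was also the group's highest at 18 months (0.16, adjusted p = 0.727), and Noc3l, whose yeast counterpart acts in pre-60S transport, was its highest at 3 months (0.13, adjusted p = 1). Brix1, another pre-60S factor, was at 0.00. A dimmer Wdr12 probe set gave a larger averaged difference of 0.47 ± 0.20 (adjusted p = 0.888), the largest positive one among the 87 probe sets of the factors. It read 5.21, 5.24 and 4.96 in Q92 mice and 4.71, 4.57 and 5.00 in wild-type mice at 18 months, and 4.86, 5.30 and 5.89 in Q92 mice and 4.90, 5.32 and 4.14 in wild-type mice at 3 months. The genotypes overlapped at both ages.

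Nip7, a pre-ribosomal RNA processing factor, had the lowest values of the 60S group at 18 months and in the average. At 18 months it read 6.64, 6.58 and 6.50 in Q92 mice and 7.10, 6.87 and 6.91 in wild-type mice, with no overlap. At 3 months it read 6.97, 7.16 and 7.09 in Q92 mice and 7.04, 7.07 and 7.42 in wild-type mice, which overlapped. The difference was -0.39 ± 0.11 at 18 months (limma, adjusted p = 0.340) and -0.25 ± 0.08 averaged (adjusted p = 0.856), so it did not pass, although its unadjusted p at 18 months was 0.0051. A second Nip7 probe set of similar signal went the other way, with 6.89, 6.64 and 7.10 in Q92 mice and 6.58, 6.61 and 6.79 in wild-type mice at 18 months and an averaged difference of 0.05.

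Rrp1b, a nucleolar protein of the 60S group, read 6.47, 6.41 and 6.44 in Q92 mice and 6.85, 6.42 and 6.75 in wild-type mice at 18 months. The Q92 values were tight, and 1 wild-type mouse lay among them (difference -0.24 ± 0.12, limma, adjusted p = 0.672). Its other 2 probe sets had averaged differences of -0.05 and 0.02, against -0.16 for the brightest. Rrp15, whose yeast counterpart processes the 60S precursor, had the lowest value at 3 months, with 5.80, 5.96 and 5.61 in Q92 mice and 5.99, 6.06 and 6.22 in wild-type mice. These groups did not overlap, but the difference of -0.30 ± 0.10 did not pass (adjusted p = 1), and at 18 months, with 5.89, 6.01 and 5.99 in Q92 mice and 5.92, 5.91 and 6.00 in wild-type mice, it was 0.02.

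**Figure D2:**
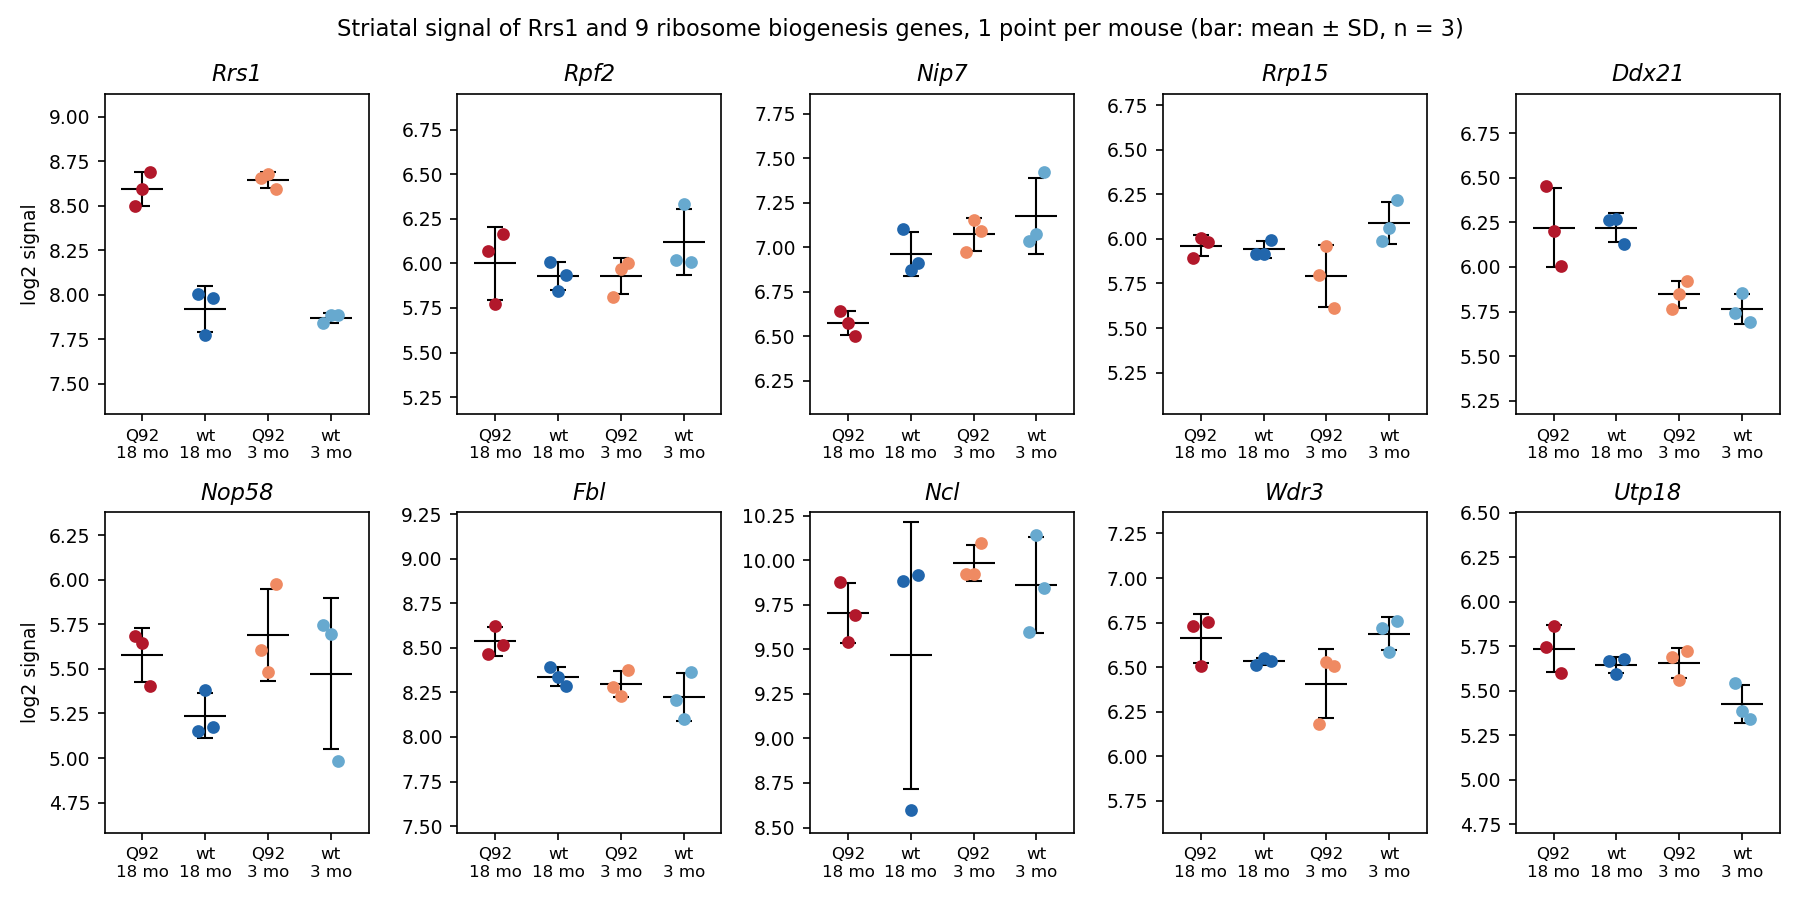
Log2 signal of Rrs1 and 9 ribosome biogenesis factors in each mouse, with Q92 left of wild type (wt) at 18 and at 3 months; points are mice, bars are the mean ± SD of 3 mice, and every panel spans 1.8 log2 units. Rrs1 separates the genotypes at both ages, and Ncl has 1 wild-type mouse at 8.60.

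The snoRNP proteins split evenly, with 4 of 8 above 0 and 4 below in the averaged comparison and a median of -0.00. Nop58, a core protein of the box C/D snoRNPs that guide ribose methylation, had the largest positive difference of all factors at 18 months and in the average. At 18 months it read 5.68, 5.65 and 5.41 in Q92 mice and 5.15, 5.38 and 5.18 in wild-type mice, without overlap (difference 0.34 ± 0.19, limma, adjusted p = 0.710). At 3 months it read 5.61, 5.48 and 5.98 in Q92 mice and 5.74, 5.70 and 4.98 in wild-type mice, and without the wild-type mouse at 4.98 the difference of 0.21 became -0.03. The averaged difference was 0.28 ± 0.13 (adjusted p = 0.904).

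Fbl, the fibrillarin methyltransferase of the same particles, read 8.47, 8.62 and 8.52 in Q92 mice and 8.39, 8.33 and 8.29 in wild-type mice at 18 months, again without overlap (0.20 ± 0.09, limma, adjusted p = 0.637). At 3 months the Fbl groups overlapped, with 8.28, 8.23 and 8.37 in Q92 mice and 8.20, 8.10 and 8.36 in wild-type mice, and the difference was 0.07. Nop56, their partner in the particle, had an averaged difference of -0.03. The H/ACA proteins that guide pseudouridylation were at 0.03 for Dkc1, 0.04 for Gar1, -0.06 for Nop10 and -0.12 for Nhp2, the lowest snoRNP value in the average. Nolc1, a snoRNP chaperone, was lowest at 18 months (-0.18) and Nop10 was lowest at 3 months (-0.14), and neither passed.

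Nucleolin (Ncl), an abundant nucleolar RNA-binding protein, had the widest interval of the factors, and 1 mouse stood apart. It read 9.88, 9.54 and 9.69 in Q92 mice and 9.88, 8.60 and 9.92 in wild-type mice at 18 months, and 9.93, 9.92 and 10.1 in Q92 mice and 9.60, 10.1 and 9.84 in wild-type mice at 3 months. The value of 8.60 belongs to wild-type mouse 12, and every other mouse stood at 9.54 or above. A second Ncl probe set was also lowest in that mouse, with 7.67 to 8.64 in the other 11, and its 3 dimmer probe sets were not. The difference at 18 months was 0.24 ± 0.28 with all mice (limma, adjusted p = 0.912) and -0.20 without that mouse (adjusted p = 0.831). Nucleophosmin (Npm1), the main structural protein of the granular nucleolus, had differences of -0.04 at 18 months and 0.10 at 3 months.

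The RNA polymerase I proteins were all slightly below 0 in the average, with -0.02 for Polr1b and -0.03 for Polr1a, the catalytic core subunits, and -0.12 for Ubtf, the factor that holds ribosomal DNA open for transcription. Ubtf read 8.03, 8.17 and 7.95 in Q92 mice and 8.18, 8.33 and 8.19 in wild-type mice at 18 months. The Q92 values were all just below the wild-type ones (difference -0.18 ± 0.10, limma, adjusted p = 0.710). Of the 4 other Polr1a probe sets, 3 were also below 0 (from -0.07 to -0.01), but the dimmest of these had mean signals of only 2.64. The fourth had an averaged difference of 0.29 ± 0.09 (limma, unadjusted p = 0.0087, adjusted p = 0.841). It read 5.65, 5.44 and 5.54 in Q92 mice and 5.52, 5.10 and 5.18 in wild-type mice at 18 months, with overlap. At 3 months it read 5.75, 5.68 and 5.69 in Q92 mice and 5.13, 5.48 and 5.58 in wild-type mice, without overlap.

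The 13 factors of the 40S subunit had mostly positive differences at 18 months and mostly negative ones at 3 months, none past the test. They were above 0 in 11 of 13 at 18 months (median 0.07) and in 4 of 13 at 3 months (median -0.04), where 49.6% and 42.6% of all genes were. Per mouse, their mean deviation was 0.04, 0.05 and 0.09 in Q92 and 0.06, -0.06 and -0.03 in wild type at 18 months. At 3 months it was -0.11, 0.00 and -0.02 in Q92 and -0.02, -0.03 and 0.03 in wild type. The genotypes overlapped at both ages in this mean. The highest at 18 months was Heatr1 at 0.19, a scaffold of the small-subunit processome, and the lowest was Nob1 at -0.01, the endonuclease that finishes the small-subunit RNA. Utp18, a processome protein, was the highest at 3 months. It read 5.69, 5.56 and 5.72 in Q92 mice and 5.55, 5.39 and 5.34 in wild-type mice at that age, a non-overlapping difference of 0.23 ± 0.10 (limma, adjusted p = 1). At 18 months Utp18 overlapped, with 5.74, 5.86 and 5.60 in Q92 mice and 5.67, 5.59 and 5.68 in wild-type mice.

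Wdr3, another processome protein, was the lowest of the 40S group at 3 months, with 6.18, 6.53 and 6.51 in Q92 mice and 6.72, 6.58 and 6.76 in wild-type mice. These groups did not overlap (-0.28 ± 0.11, limma, adjusted p = 1). At 18 months it read 6.73, 6.51 and 6.75 in Q92 mice and 6.51, 6.55 and 6.53 in wild-type mice, a difference of 0.13 with overlap. The change of its difference with age, 0.41 ± 0.16, was the largest of the 41 factors and did not pass (adjusted p = 0.947).

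Some factors had genotype groups that did not overlap at 1 age. At 18 months, 4 of 41 (Wdr12, Nop58, Fbl and Bms1) had all Q92 mice above all wild-type mice (6.50% of all genes), and 3 (Nip7, Polr1a and Ubtf) had all below (7.51%). At 3 months, 1 (Utp18) had all above (2.30%) and 5 (Rpf2, Rrp15, Nop10, Wdr3 and Tsr1) had all below (4.34%). No factor was apart in the same direction at both ages, which held for Rrs1 and for 0.126% of all genes above and 0.209% below.

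**Figure D3:**
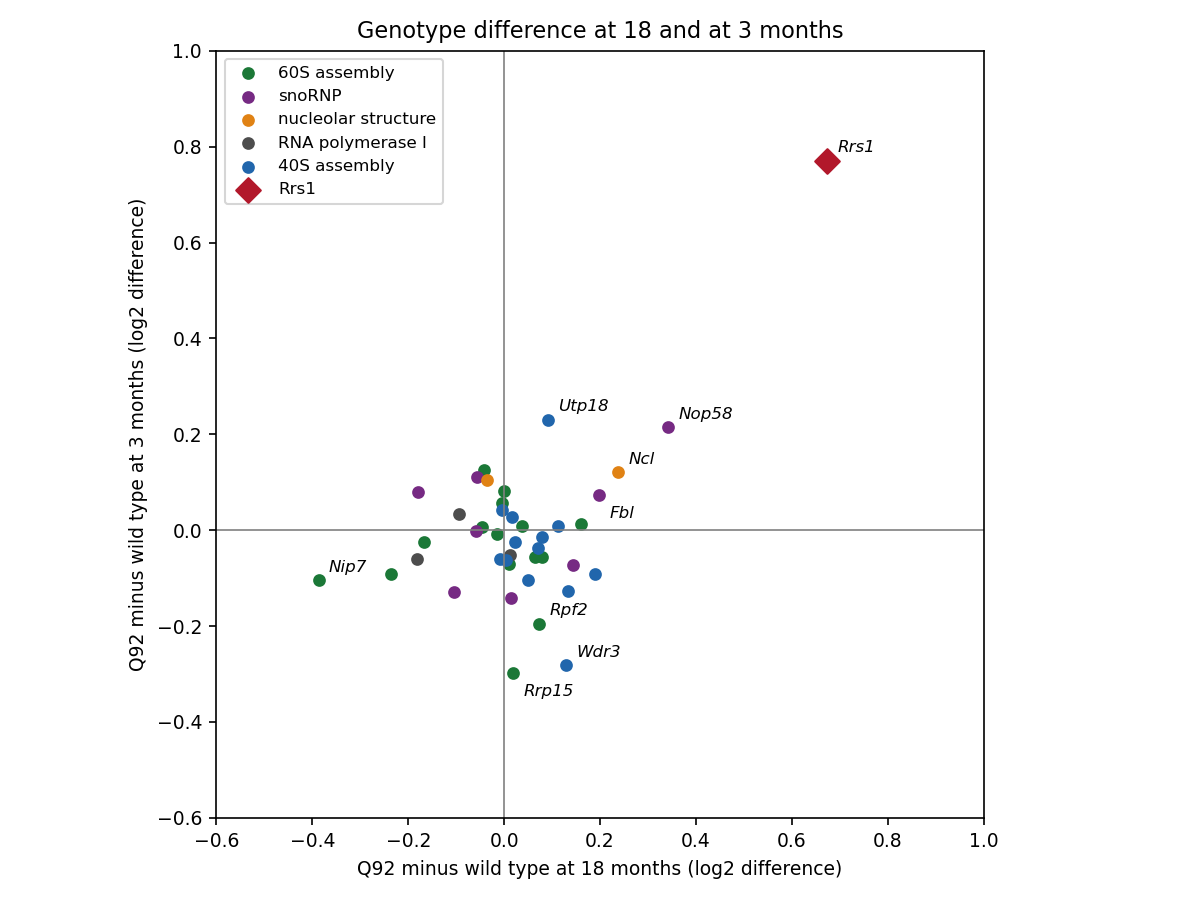
Log2 difference of Q92 minus wild type at 18 months (horizontal) and at 3 months (vertical), 1 point per ribosome biogenesis factor coloured by role, with Rrs1 as a diamond. Rrs1 sits at 0.67 and 0.77, and the factors stay between -0.39 and 0.34 on the horizontal axis and between -0.30 and 0.23 on the vertical one.

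In the test of a change of the genotype difference with age 0 of 41 passed, with 0% of all genes passing, and 2 of 41 (Wdr3 and Rrp15) had an unadjusted p under 0.05, against 5.80% of all genes. For Rrs1 the change was -0.10 ± 0.13 (limma, adjusted p = 0.968).

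Age itself was also without a call. Between 18 and 3 months, 0 of 41 passed in Q92 mice (0.264% of all genes) and 0 of 41 in wild-type mice (0.0715%). With an unadjusted p under 0.05, 4 factors (Ddx21, Fbl, Wdr12 and Wdr3) were higher (7.42% of all genes) and 2 (Nip7 and Rrp1b) lower (5.03%) at 18 months in Q92 mice. In wild-type mice 3 (Ddx21, Utp18 and Npm1) were higher (6.52%) and 0 lower (4.45%). All 18-month mice stood above all 3-month mice in 4 of 41 factors in Q92 (Ddx21, Fbl, Wdr12 and Pes1, 10.0% of all genes) and in 3 in wild type (Ddx21, Utp18 and Npm1, 9.76%). They stood below them in 7 in Q92 (Nip7, Bop1, Noc2l, Noc3l, Rrp1b, Polr1a and Ncl, 7.52%). In wild type they did so in 3 (Rpf2, Gar1 and Wdr3, 8.81%). The median difference of 18 minus 3 months was 0.07 in Q92 and -0.04 in wild type, beside 0.01 and -0.01 over all genes.

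Ddx21, a nucleolar RNA helicase, had the largest positive age difference in both genotypes. Its Q92 values were 6.45, 6.20 and 6.01 at 18 months and 5.77, 5.85 and 5.92 at 3 months, a difference of 0.38 ± 0.11 (limma, adjusted p = 0.231). In wild-type mice it read 6.27, 6.27 and 6.13 at 18 months and 5.74, 5.86 and 5.69 at 3 months, a difference of 0.46 ± 0.11 (adjusted p = 0.217). Neither pair of groups overlapped, and its second probe set gave 0.14 and -0.10 for the same comparisons.

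Nip7 had the largest negative age difference, -0.50 ± 0.11 in Q92 mice (limma, adjusted p = 0.122), with its second probe set at 0.25. In wild-type mice it was -0.22 ± 0.11. Fbl had an age difference of 0.24 ± 0.09 in Q92 mice (adjusted p = 0.378) and 0.12 in wild-type mice. Npm1 was at 0.23 ± 0.10 in wild-type mice (adjusted p = 0.469), with 10.2, 10.2 and 10.3 at 18 months and 9.81, 10.1 and 10.0 at 3 months, and at 0.09 in Q92 mice. Utp18 was at 0.22 ± 0.10 in wild-type mice (adjusted p = 0.455).

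**Figure D4:**
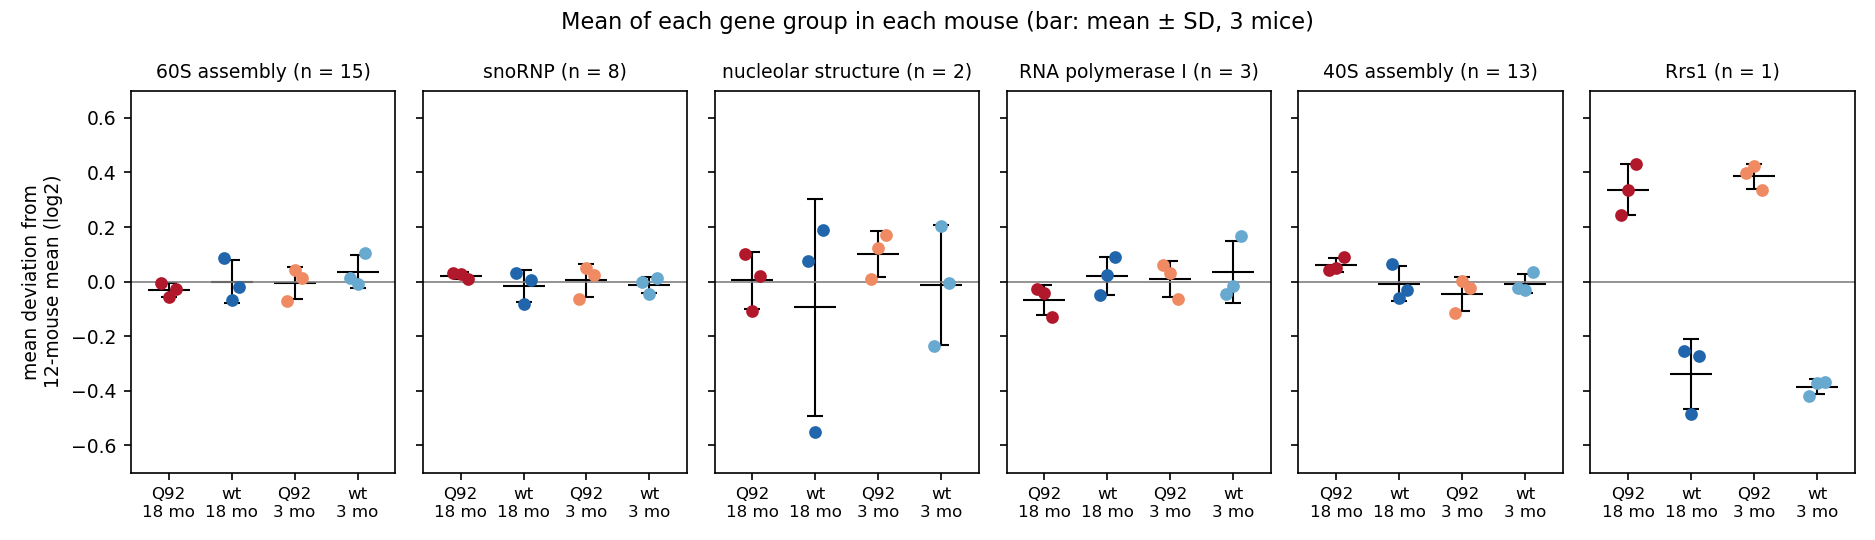
Mean deviation from the 12-mouse mean (log2) of the factors of each role in each mouse, beside Rrs1 on the same axis, with Q92 left of wild type (wt) at 18 and at 3 months; points are mice, bars are the mean ± SD of 3 mice, and n is the number of genes. The low point of the nucleolar structure genes, -0.55, is wild-type mouse 12.

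Per mouse, the mean deviation of the 41 factors was 0.02, -0.01 and 0.01 log2 in Q92 mice and 0.06, -0.08 and -0.00 in wild-type mice at 18 months. At 3 months it was -0.07, 0.03 and 0.01 in Q92 mice and -0.02, -0.01 and 0.06 in wild-type mice. The genotypes overlapped at both ages. Rrs1 stood at 0.24 to 0.43 in the 6 Q92 mice and at -0.48 to -0.25 in the 6 wild-type mice. The marker means given above for projection and cortical neurons also differed between mice. The mean of the choroid plexus and ependyma markers did so too. It was 1.70 in the 18-month wild-type mouse at -0.08 and 1.67 in the 3-month Q92 mouse at -0.07. Every other mouse stood at 0.61 or lower. Those mice with high choroid values had the lowest means of the 41 factors, and the wild-type one also had the low Ncl value. The part of these marker means in the factors' values was not tested.

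The 41 factors had 87 probe sets, and 0 of 87 passed in any of the 6 comparisons. Of the 30 factors with more than 1 probe set, 13 had all of them on the same side of 0 in the averaged comparison (7 above and 6 below). The second Rrs1 probe set was higher in Q92 too, by 0.42 at 18 months and 0.55 at 3 months, without passing the test.

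Other genes of the pathway were measured as 7 lists with 169 genes, and 0 of 169 passed in any of the 6 comparisons. At 18 months 96 of 169 were above 0 in Q92 (median 0.01), at 3 months 67 of 169 (median -0.02), and 8 at 18 months and 2 at 3 months (Ppan and Mxd4) had an unadjusted p under 0.05, where 8.03% and 2.27% of all genes did. The gene with the smallest p at 18 months was Dis3, a catalytic subunit of the RNA exosome that trims ribosomal RNA precursors, at 6.17 ± 0.07 in Q92 and 5.82 ± 0.07 in wild type (SD, n = 3 each; difference 0.35 ± 0.08, limma, adjusted p = 0.200). Mxd1, a MAX partner that opposes MYC, was at 6.58 ± 0.16 in Q92 and 7.01 ± 0.13 in wild type (-0.43 ± 0.13, limma, adjusted p = 0.332). Myc, of low signal with means of 3.845 in Q92 and 4.02 in wild type, was at -0.18. Polr1d, a subunit of RNA polymerases I and III, was at 0.28 (adjusted p = 0.481).

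For the remaining lists at 18 months, the gene with the smallest p was Dhx37 at 0.29 among 45 further 40S factors. Among 47 further 60S factors it was Nvl at -0.38, and among 42 cytosolic ribosomal proteins it was Rpl12 at -0.25. Of the 2 measured genes on the 5S list, Gtf3a and Rpl11, it was Gtf3a at -0.11. None passed. Signals of Dhx37 were low, with means of 4.14 in Q92 and 3.84 in wild type, and Rpl12 was read at 5.15 and 5.40. The further 40S factors, measured in the same mice, had 35 of 45 above 0 at 18 months and 17 of 45 at 3 months. Of all genes, 49.6% and 42.6% were above 0. Per mouse, the mean deviation of these 45 at 18 months was 0.05, -0.01 and 0.11 in Q92. It was 0.03, -0.06 and -0.01 in wild type. The genotypes overlapped in this mean at both ages. At 3 months the genes of smallest p were Ppan at -0.20, Mxd4 at -0.28, Tbl3 at -0.24, Exosc5 at -0.22, Polr1d at -0.15, Rps27 at -0.15 and Rpl11 at -0.03, and none passed. Ribosomal proteins were above 0 with age in 36 of 42 genes in Q92 mice and in 35 of 42 in wild-type mice, where 51.9% and 47.3% of all genes were above 0, with medians of 0.08 in Q92 and 0.07 in wild type, and 0 passed in either.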

How the data were processed

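Striatal RNA of 12 mice was measured, 1 array each. Each probe set has a deposited log2 signal; the submitters' processing notes name RMA and affy without versions. Whether the arrays were normalised jointly is not given in these sources. RMA evens total signal between arrays, so differences are relative to other genes. From these values, limma 3.58.1 (R 4.3.3) fitted a mean per group to all 12 arrays (8 residual and 4.50 prior degrees of freedom), with Benjamini-Hochberg adjustment over 45037 probe sets in each of 6 comparisons (64 control probe sets left out). The averaged comparison is the mean of both ages' genotype differences. A second fit subtracted Rrs1 from every probe set within each array. Simulated data held 45037 probe sets with independent noise, of which 100 were changed by 1 log2 and 100 by 0.5. There the averaged comparison recovered 95% of log2 changes of 1 and 58% of 0.5, with 10 false calls in all. In the real data that comparison called 5 of 18193 genes, and with fewer changed genes the share recovered may be lower. The number of arrays limits the precision (median SE of a factor's difference 0.11 at one age). Named are Rrs1, Htt, Rpf2, the 3 factors of smallest p per comparison, the extremes per role and the gene of smallest p per pathway list; Ncl, Nop58, Ubtf and others were added after their values were seen. The members and lists were chosen with earlier results of these data known. Alternatives covered scaling, filters, covariates, probe-set choice and left-out mice.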

Additional observations from a re-analysis of the deposited data

How the results depend on the processing

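The count of factors past the threshold was 0 in each of the 6 comparisons under every alternative run (other scaling, dim probe sets left out, a trended robust prior, array weights, sex or an 18S control signal as a covariate, other probe-set summaries, fewer arrays). The count below Rrs1 in the averaged comparison was 41 without any 1 mouse and 40 with the most variable probe set per gene. As 98.8% of all genes passed that test in the main fit, this count is no result about the factors. The averaged median of the factors stayed between -0.03 and 0.02. The median change with age moved from 0.05 to -0.0066 with array weights, -0.012 with the most variable probe set and, without single mice, -0.017 to 0.071. The median of 18 minus 3 months in Q92 moved from 0.07 to 0.0037 with the most variable probe set, 0.0061 without the 2 arrays of lowest correlation and, without single mice, 0.0061 to 0.077. The sign of several small differences turned. Rpf2 at 18 months was -0.033 with the 18S covariate, -0.0013 with all probe sets averaged, -0.22 with the most variable one, -0.0081 without the 2 arrays and -0.0081 to 0.19 without single mice. The change of Nip7 with age was 0.019 with all probe sets averaged. Nop58 at 3 months was -0.031 without the 2 arrays and -0.031 to 0.35 without single mice. Without single mice Ncl ran from -0.20 to 0.46 at 18 months, -0.0096 to 0.26 at 3 months and -0.037 to 0.29 averaged. The Rrs1 difference passed in 15 of 24 alternatives at 18 months, 14 of 24 at 3 months and 22 of 23 averaged. The averaged exception was age in days as a block, at 0.70, a fit that left only Q92 mouse 11 among the Q92 mice at 18 months. The cause of these shifts was not tested. No paired analysis was possible because the replicate numbers in the labels are animal numbers that no 2 groups share, and only ages in days, which some mice of both genotypes share, could be blocked on, as above.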

Other observations

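The genes next to Rrs1 on chromosome 1, 5 on each side by order in the RefSeq gene table, were looked at after the data had been seen. Of these, 9 had a probe set of their own, 0 of the 9 passed in the averaged genotype comparison (limma) and 1 (Adhfe1, at -0.22) had an unadjusted p under 0.05. Their averaged log2 differences of Q92 minus wild type ran from -0.22 to 0.10. Sgk3, a kinase gene, was at -0.60 at 18 months (adjusted p = 0.217) and 0.17 at 3 months. Noc4l, a 40S factor and the one factor on chromosome 5, where Htt lies, had an averaged difference of -0.03.

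A control probe set for 18S ribosomal RNA differed widely between mice. It read 7.52, 6.21 and 8.31 in Q92 mice and 5.64, 5.75 and 5.73 in wild-type mice at 18 months. At 3 months it was 6.66, 7.01 and 11.2 in Q92 mice and 6.69, 8.70 and 5.28 in wild-type mice. The genotypes were apart at 18 months, as they were in that direction for 6.50% of all genes, and overlapped at 3 months. Whether this control signal follows the amount of 18S ribosomal RNA in the tissue was not tested. The control was left out of the features tested and served as a covariate in 1 alternative.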
